A study of Mus musculus with 23 samples.

Results

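Accessible chromatin was followed at 10 genes characteristic of neutrophils, S100a8, S100a9, Mmp8, Mmp9, Cxcr2, Elane, Prtn3, Lcn2, Retn and Mcemp1, in ATAC-seq peak lists of microglia sorted from the mouse striatum. The 10 genes, of 21887 protein-coding genes in the annotation, were set by name, with earlier results of these data known, and the peaks were selected on the position of their summits. A peak was assigned to a gene when its summit lay in the gene body or within 20 kb of it on GRCm38, and to the nearest of the 10 where several applied. This gave 581 of 1054137 deposited peaks in 23 libraries. Of these, 154 lay in the gene body or within 1 kb of its ends and are called the gene's own peaks. The values that place a peak at a gene, its presence and position, are given as a description, and tests were run over all regions of the genome.

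All mice were males aged 8 to 10 weeks, and the sources used here give neither their strain nor the agent of the prenatal exposure. MIA_LPS (5 libraries) came from offspring of dams with maternal immune activation that received lipopolysaccharide, a bacterial cell wall component, into the peritoneum (4500 endotoxin units for each gram of weight). CON_LPS (7 libraries) came from control offspring given the same dose, MIA_SAL (6) from maternal immune activation offspring given saline and CON_SAL (5) from control offspring given saline. Tissue was taken 18 hours after the injection. In every group the mice were perfused, the meninges removed, the striatum digested with papain, and live CD11b+, CD45-low, P2RY12+ cells collected, a gate meant to leave out CD45-high blood leukocytes, neutrophils among them.

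ATAC-seq inserts sequencing adapters into open DNA, so a peak marks accessible chromatin and not transcription. Neutrophils are short-lived blood granulocytes that carry proteases and antimicrobial proteins in granules and leave the vessels along chemokine gradients. Several of the proteins followed here are made mainly while the cells mature in bone marrow, whereas others, such as lipocalin 2 and the S100A8/S100A9 pair, are also induced in other myeloid and glial cells under inflammation.

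Promoter sequences are shown for the 5 genes whose promoter was at least 50% covered by a peak in any library, as the DNA at the start of these genes. Most regions called below lie elsewhere in the genes or between them. They are 300 bases of RefSeq sequence on build GRCm38.p6, 250 bases before to 50 after the annotated start, written 5′ to 3′ on the gene's strand. Capitals mark 2 of the motifs searched on both strands, the PU.1 core GAGGAA, which reads TTCCTC where it lies on the other strand and was found in 28.3% of 32851 promoters of this length, and the AP-1 motif TGANTCA, found in 7.81%. The C/EBP core TTGCAA (6.23% of promoters) and the kappaB string GGGACTT (5.44%) were in none of these windows. The motifs do not overlap one another here, and a match is a description of letters only.
S100a8, chr3:90668821-90669120, plus strand: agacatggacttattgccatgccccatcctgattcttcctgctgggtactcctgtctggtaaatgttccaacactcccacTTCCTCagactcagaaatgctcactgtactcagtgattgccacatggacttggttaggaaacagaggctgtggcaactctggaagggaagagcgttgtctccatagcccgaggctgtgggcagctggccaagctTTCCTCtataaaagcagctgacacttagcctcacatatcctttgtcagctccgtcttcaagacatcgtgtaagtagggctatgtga
Mmp8, chr9:7558179-7558478, plus strand: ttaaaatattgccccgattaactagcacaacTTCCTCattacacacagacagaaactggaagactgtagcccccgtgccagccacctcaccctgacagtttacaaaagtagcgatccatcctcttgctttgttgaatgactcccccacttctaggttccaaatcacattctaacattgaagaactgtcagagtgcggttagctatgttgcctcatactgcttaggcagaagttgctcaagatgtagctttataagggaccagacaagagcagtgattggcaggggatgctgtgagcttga
Cxcr2, chr1:74153744-74154043, plus strand: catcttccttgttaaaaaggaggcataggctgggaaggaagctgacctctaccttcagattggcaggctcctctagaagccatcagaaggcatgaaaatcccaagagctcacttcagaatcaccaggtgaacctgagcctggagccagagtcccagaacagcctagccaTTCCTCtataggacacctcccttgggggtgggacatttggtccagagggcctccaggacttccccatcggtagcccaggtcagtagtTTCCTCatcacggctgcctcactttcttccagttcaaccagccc
Lcn2, chr2:32387690-32387989, minus strand: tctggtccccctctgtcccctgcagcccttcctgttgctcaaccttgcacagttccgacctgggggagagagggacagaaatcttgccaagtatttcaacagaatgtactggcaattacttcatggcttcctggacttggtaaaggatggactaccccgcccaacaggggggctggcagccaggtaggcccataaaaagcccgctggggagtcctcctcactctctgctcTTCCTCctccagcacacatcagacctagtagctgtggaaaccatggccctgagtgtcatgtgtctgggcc
Mcemp1, chr8:3665512-3665811, plus strand: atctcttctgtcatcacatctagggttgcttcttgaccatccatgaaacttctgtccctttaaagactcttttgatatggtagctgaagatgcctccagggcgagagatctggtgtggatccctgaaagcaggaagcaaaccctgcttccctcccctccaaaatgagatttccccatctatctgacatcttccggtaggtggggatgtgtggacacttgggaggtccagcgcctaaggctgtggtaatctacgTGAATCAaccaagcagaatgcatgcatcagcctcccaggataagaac
The PU.1 core stood 2 times in the S100a8 and Cxcr2 windows and 1 time in those of Mmp8 and Lcn2, and the AP-1 motif stood 1 time in that of Mcemp1. Peaks covered the S100a8 promoter in 4 MIA_LPS and 5 CON_LPS libraries, that of Mcemp1 in 4 and 3, those of Mmp8 and of Lcn2 in 4 and 1 each, and that of Cxcr2 in 0 and 2. In these counts a peak covers at least 50% of the window, which no saline library reached. Peaks that overlapped a window by less were found after saline too, in 3 MIA_SAL and 2 CON_SAL libraries at Cxcr2 and 1 CON_SAL library at Mmp8. The promoters of S100a9, Elane, Prtn3 and Retn were not covered in any library, and Mmp9 had no promoter in the sequence table.

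The neutrophil genes carried more peaks after LPS than after saline. LPS libraries held between 18 and 43 peaks at the 10 genes (30.6 ± 7.13, SD, n = 12) and saline libraries between 8 and 30 (19.5 ± 6.64, n = 11). Because the deposited lists held 33949 to 68312 peaks, the best 33949 of each, ranked by −log10 p, were also taken alone. In these lists of equal length the counts were 18 to 26 after LPS (22.3 ± 2.50) and 8 to 16 after saline (13.0 ± 2.76). The genes were named with earlier results known, and how many other gene sets differ in this way was not counted. The number of the 10 genes with an own peak was 6, 8, 2, 8 and 8 in MIA_LPS, and 4 to 8 in CON_LPS (median 7). It was 0 to 4 in MIA_SAL (median 2.5), and 2, 3, 2, 4 and 4 in CON_SAL. MIA_LPS replicate 3, the shortest list, stood among the saline libraries in this count.

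**Figure D1:**
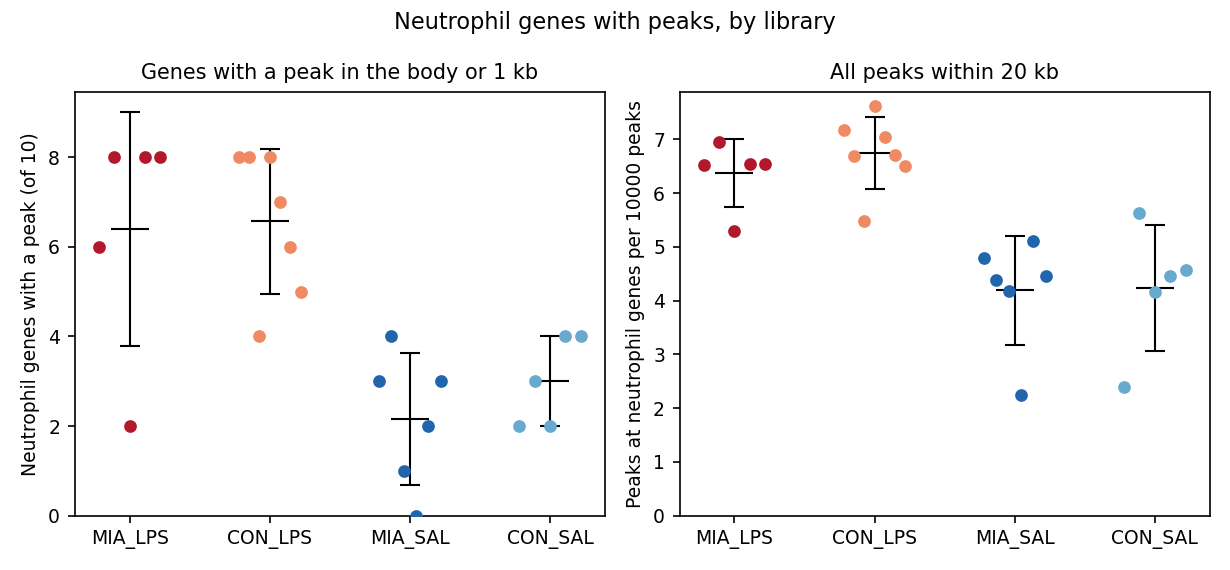
Neutrophil genes with an own peak (left, of 10 genes) and peaks within 20 kb as a rate per 10000 deposited peaks of the library (right), with 1 point per library and the mean and SD in black. LPS libraries reach 8 genes and saline libraries 4, and the rate is 6.37 ± 0.62 in MIA_LPS, 6.75 ± 0.67 in CON_LPS, 4.19 ± 1.01 in MIA_SAL and 4.24 ± 1.17 in CON_SAL.

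Peaks of all 23 libraries, pooled without regard to group, were merged into windows reaching 250 bp to either side of a summit, here called regions. The 10 genes held 60 of 127025 regions, and 34 of them had a peak in at least 3 libraries of the equal-length lists, as did 49818 regions genome-wide. An exact test stratified by prenatal group, conditional on how many libraries had a peak, compared LPS with saline. It could reach p of 0.01 or less in 17 of the 34, and p-values were Benjamini-Hochberg adjusted over all 17886 such regions. At adjusted p under 0.05, 9 of the 17 were open in more LPS than saline libraries and 1 in fewer, where genome-wide 14.8% were called higher and 7.83% lower. The median difference in the share of libraries with a peak was 58.5 percentage points over the 17 and -2.01 over all regions tested. The genes were named with results known, so these shares describe the list and are not independent evidence. Of the 9 regions, 5 lay in or within 1 kb of their own gene and 4 between genes. None of the 3 tested regions at neighbouring genes was called higher. Most of these peaks were of middle or low rank: among the best 16974 peaks of each list 3 regions of the 10 genes passed, the one upstream of Retn and a region in Mmp9 among them, and the other 8 regions called higher no longer did. In a bulk library, open chromatin in a few admixed neutrophils and partial opening in many microglia cannot be told apart.

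Among the deposited peaks, 10 of the 41 regions with a peak in at least 3 libraries had one in at least 3 LPS and in no saline library, a pattern held by 5.63% of such regions genome-wide. The reverse, at least 3 saline and no LPS library, was found in 0 of the 41 and in 3.5% genome-wide. A region without a listed peak is below the caller's threshold, which is not the same as closed.

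**Figure D2:**
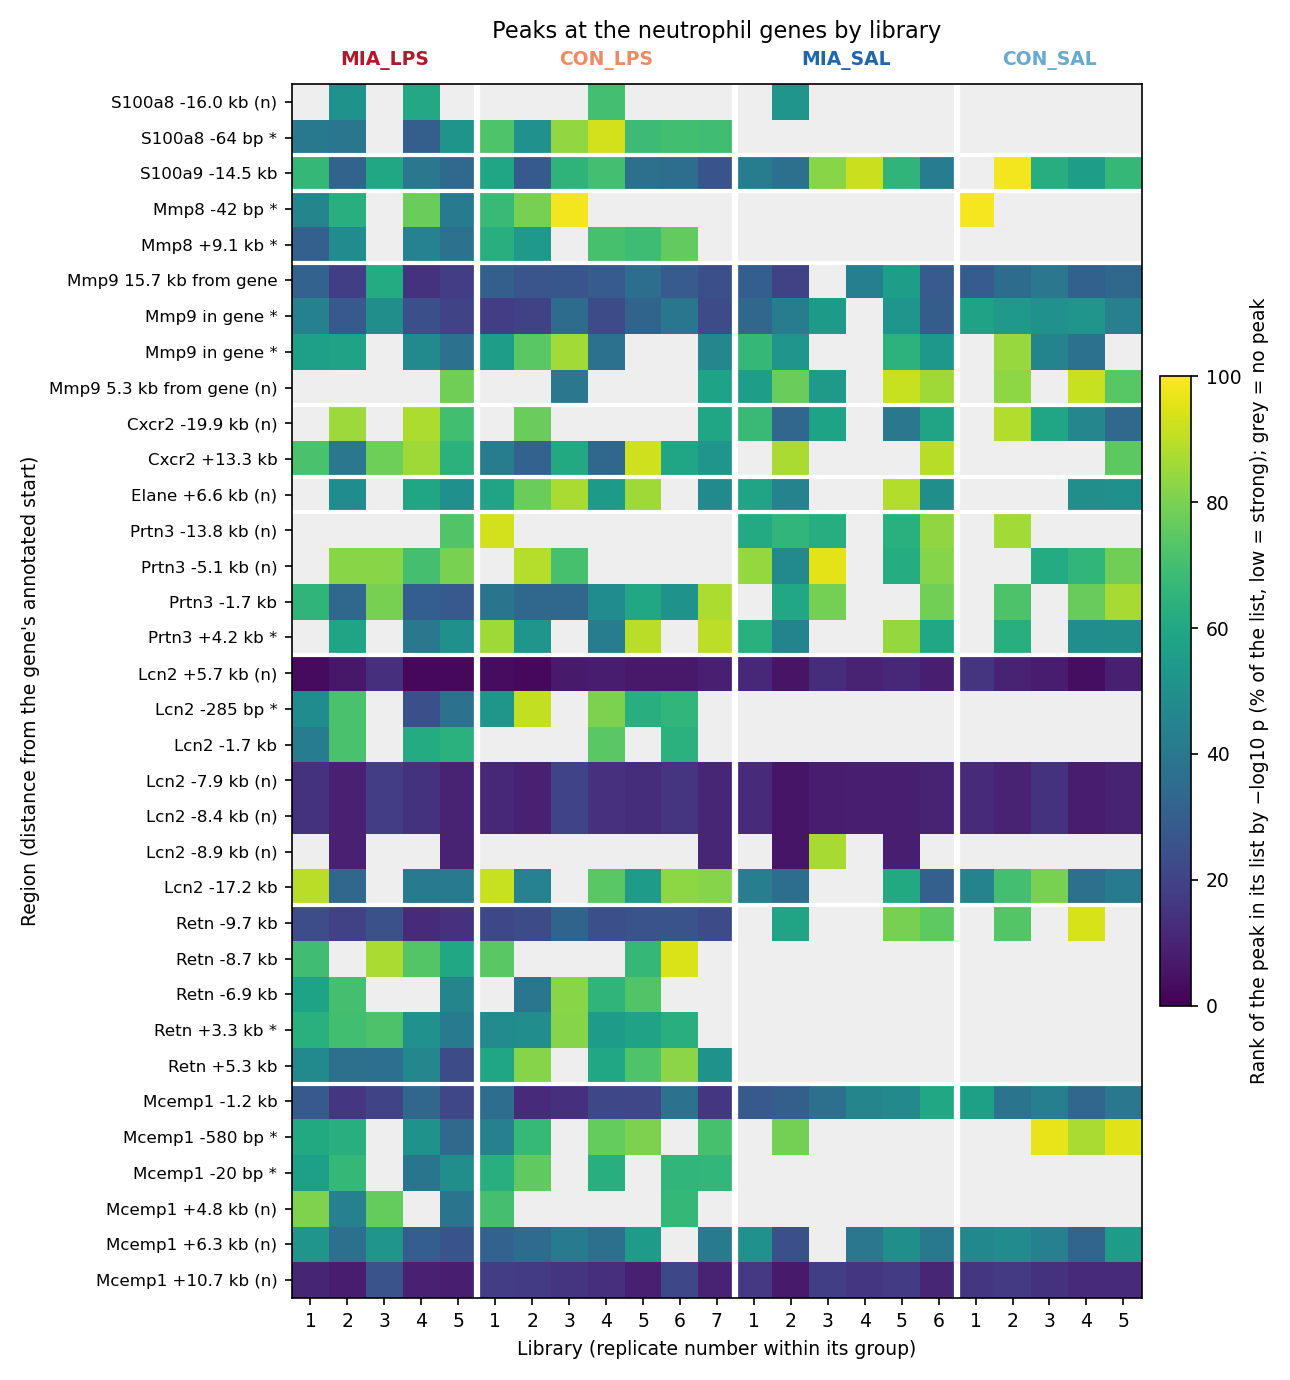
Rank of the peak within its library (colour, percent of the list, low is strong, grey is no peak) at the 34 regions of the neutrophil genes kept for tests, in rows by gene and distance from the annotated start, for 23 libraries in columns. Stars mark regions in or within 1 kb of the named gene, and (n) regions at a neighbouring gene. The Retn rows at +3.3 and +5.3 kb and the S100a8 row at -64 bp are grey in all saline libraries, while the neighbouring promoters in the Lcn2 window are dark in all 23.

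S100a8 and S100a9 encode the calcium-binding subunits of calprotectin, a major cytosolic protein of neutrophils. The S100a8 promoter region (chr3:90668757-90669257, centre 64 bp upstream of the annotated start) had a peak in 4 of 5 MIA_LPS, 7 of 7 CON_LPS, 0 of 6 MIA_SAL and 0 of 5 CON_SAL libraries. The −log10 p of the peak was 17.3, 19.5, 22.6 and 18.4 in MIA_LPS replicates 1, 2, 4 and 5, and replicate 3 had none. In CON_LPS it lay between 5.55 and 13.6 with a median of 8.37, and every peak was weaker than those of MIA_LPS. With equal-length lists the counts were 4, 6, 0 and 0, and the region was called higher after LPS (exact stratified test, adjusted p = 0.00194). S100a9 differed: none of the 23 libraries had a peak in its body or within 1 kb. Its nearest recurrent region, 14546 bp upstream of the annotated start (chr3:90710017-90710517), was open in both treatments, in 5 MIA_LPS, 7 CON_LPS, 6 MIA_SAL and 4 CON_SAL libraries. Its −log10 p was 10.0, 24.5, 9.97, 17.3 and 31.97 in MIA_LPS and 8.07 to 25.2 (median 17.2) in CON_LPS. In MIA_SAL it was 5.36 to 35.3 (median 12.8), and in 4 CON_SAL libraries 4.43, 7.93, 14.6 and 10.3. Presence there was too frequent for the exact test. Limma on the within-list rank (a score of 1 for the best peak of a list and 0 for no peak) placed it higher after LPS by 0.23 ± 0.07 (SE, adjusted p = 0.0214). By that test 12 of the 34 regions were higher and 3 lower, against 10.4% and 9.35% genome-wide, and 2 of the 3 lower regions are 1 wide peak by Ptges2 that spans both.

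Mmp8 and Mmp9 encode neutrophil collagenase, stored in specific granules, and gelatinase B, stored in gelatinase granules and also made by macrophages and microglia. In Mmp8, a region near the end of the gene (chr9:7567321-7567821, 915 bp inside it) had a peak in 4 of 5 MIA_LPS and 5 of 7 CON_LPS libraries and in 0 of 6 MIA_SAL and 0 of 5 CON_SAL libraries. The −log10 p there was 22.6, 15.4, 15.5 and 28.4 in MIA_LPS replicates 1, 2, 4 and 5, against 8.30 to 12.6 in the 5 CON_LPS libraries with a peak. The region was called higher after LPS (adjusted p = 0.00479). The Mmp8 promoter region (chr9:7558137-7558637) had a deposited peak in 4 MIA_LPS, 3 CON_LPS, 0 MIA_SAL and 1 CON_SAL libraries. In equal-length lists 3 of these 8 were left, too few for the test.

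Mmp9 was open in both treatments. A region in its body (chr2:164942919-164943419) had a peak in 12 of 12 LPS and 10 of 11 saline libraries, MIA_SAL replicate 4 being the exception. The peak ranked in the top 43.9%, 28.1%, 49.3%, 24.4% and 20.5% of the list in MIA_LPS and 18.1% to 39.1% (median 23.4%) in CON_LPS. In the 5 MIA_SAL libraries with a peak it ranked in the top 29.5% to 54.6% (median 41.9%), and in CON_SAL in the top 57.4%, 54.0%, 50.7%, 52.1% and 43.7%. The ranks overlapped between LPS and saline libraries, and the score was higher after LPS by 0.26 ± 0.05 (SE, limma, adjusted p = 0.0012). The other recurrent region in Mmp9 (chr2:164953164-164953664) was present in 4 MIA_LPS, 5 CON_LPS, 4 MIA_SAL and 3 CON_SAL libraries and did not pass the exact test (adjusted p = 0.827).

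Elane and Prtn3 encode neutrophil elastase and proteinase 3, serine proteases of azurophil granules that are transcribed in marrow precursors. Elane had no own peak in any library. The region assigned to it (chr10:79892680-79893180) lies 275 bp from an end of Cfd, the complement factor D gene, and was present in 3 MIA_LPS, 6 CON_LPS, 4 MIA_SAL and 2 CON_SAL libraries (adjusted p = 0.629). At Prtn3, the region 1745 bp upstream of the annotated start (chr10:79877672-79878172) had a peak in 5 MIA_LPS, 7 CON_LPS, 3 MIA_SAL and 3 CON_SAL libraries. Its −log10 p was 10.2, 22.9, 7.21, 22.7 and 40.9 in MIA_LPS and 5.52 to 21.5 (median 13.7) in CON_LPS. The 3 MIA_SAL peaks had 16.9, 6.36 and 7.92 and the 3 CON_SAL peaks 8.05, 8.88 and 6.66, within the range after LPS. In equal-length lists it was left in 5, 6, 1 and 1 libraries and was called higher after LPS (adjusted p = 0.008). With peaks of −log10 q of at least 5 the adjusted p was 0.202 and the call was lost, and over all alternatives it lay between 5.85e-05 and 0.317. The region just past the end of Prtn3 (chr10:79883571-79884071) had a peak in 3, 5, 4 and 3 libraries of MIA_LPS, CON_LPS, MIA_SAL and CON_SAL and did not pass (adjusted p = 0.827).

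Cxcr2 encodes the chemokine receptor that draws neutrophils toward CXCL1 and CXCL2. Its promoter region (chr1:74153703-74154203) had weak peaks in 2 MIA_LPS, 3 CON_LPS, 3 MIA_SAL and 1 CON_SAL libraries, of −log10 p 4.35 to 9.47, and 1 of these 9 remained in equal-length lists. A region 6044 bp beyond the gene (chr1:74167040-74167540) had a peak in 5 MIA_LPS, 7 CON_LPS, 2 MIA_SAL and 1 CON_SAL libraries. Its −log10 p was 9.09, 19.3, 7.40, 6.19 and 13.1 in MIA_LPS and 5.78 to 22.996 (median 11.1) in CON_LPS, against 7.49 and 6.15 in MIA_SAL and 8.59 in CON_SAL. It was called higher after LPS (3, 6, 0 and 0 libraries in equal-length lists, adjusted p = 0.00479). With −log10 q of at least 5 its adjusted p was 0.0978, within a range of 0.00266 to 0.0978 over the alternatives. The one region called lower after LPS also lay in this window, 19876 bp upstream and inside the neighbouring gene Rufy4 (chr1:74133868-74134368). It had a peak in 0 MIA_LPS, 1 CON_LPS, 5 MIA_SAL and 3 CON_SAL equal-length lists (adjusted p = 0.0227), but in 3, 2, 5 and 4 libraries of the deposited lists, where it did not pass (adjusted p = 0.322, the highest over the alternatives, whose lowest was 0.00953).

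Lcn2 encodes lipocalin 2, which binds bacterial siderophores and which astrocytes and microglia also make under inflammation. Its promoter region (chr2:32387774-32388274, centre 285 bp upstream of the annotated start) had a deposited peak in 4 of 5 MIA_LPS and 5 of 7 CON_LPS libraries and in 0 of 6 MIA_SAL and 0 of 5 CON_SAL libraries. Its −log10 p was 14.3, 8.92, 27.5 and 28.5 in MIA_LPS replicates 1, 2, 4 and 5 and 5.71 to 12.3 (median 9.94) in the 5 CON_LPS libraries. In equal-length lists 3 MIA_LPS and 3 CON_LPS libraries kept the peak, and the region did not pass (adjusted p = 0.0584). It passed with all deposited peaks (adjusted p = 0.00854), and the adjusted p lay between 0.00854 and 0.156 over the alternatives. Without MIA_LPS replicate 2 or replicate 3 the equal-length test also passed, with a lowest adjusted p of 0.0277. By limma on the rank scores of all 23 libraries the region was higher after LPS by 0.18 ± 0.06 (SE, adjusted p = 0.0318). Elsewhere in the Lcn2 window the peaks belonged to neighbours: regions 82 bp from an end of 1110008P14Rik and under 1 wide peak by Ptges2 had a peak in all 23 libraries.

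Retn, which encodes resistin, and Mcemp1, which encodes a membrane protein of mast cells and myeloid cells, lie side by side on chromosome 8. The locus carried 5 of the 9 regions called higher after LPS. Retn itself had an own peak in 5 of 5 MIA_LPS and 6 of 7 CON_LPS libraries and in 0 of 6 MIA_SAL and 0 of 5 CON_SAL libraries. Of the regions of the locus called by the exact test, the one with the strongest peaks after LPS lay 9739 bp upstream of Retn (chr8:3645781-3646281), 2033 bp from the end of Stxbp2. Peaks there had a −log10 p of 28.1, 39.5, 23.3, 50.1 and 75.2 in MIA_LPS and 16.2 to 30.5 (median 24.1) in CON_LPS. In the saline groups 3 MIA_SAL libraries had 17.7, 7.45 and 8.54, and 2 CON_SAL libraries had 7.85 and 5.65. It ranked in the top 11.98% to 32.2% of the list in the 12 LPS libraries and in the top 58.5% to 94.1% in the 5 saline libraries with a peak. In equal-length lists it was present in 5, 7, 0 and 1 libraries of MIA_LPS, CON_LPS, MIA_SAL and CON_SAL (adjusted p = 0.000567).

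Inside Retn, near its end (chr8:3658856-3659356), the −log10 p was 10.7, 9.34, 8.12, 13.3 and 25.0 in MIA_LPS and 6.19 to 14.0 (median 11.5) in 6 CON_LPS libraries, and no saline library had a peak (4 and 6 LPS libraries in equal-length lists, adjusted p = 0.00194). A further region 1269 bp past Retn (chr8:3660837-3661337) had 14.7, 20.8, 16.5, 14.7 and 49.1 in MIA_LPS and 6.88 to 10.9 (median 9.29) in 6 CON_LPS libraries, and again none after saline (adjusted p = 0.00159). There every MIA_LPS peak was stronger than every CON_LPS peak. Each of the 12 LPS libraries had a peak in at least 1 of these 2 regions.

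The Mcemp1 promoter region (chr8:3665492-3665992, centre 20 bp upstream) had a peak in 4 MIA_LPS and 5 CON_LPS libraries and in no saline library. The −log10 p reached 12.2, 9.98, 17.5 and 19.6 in MIA_LPS replicates 1, 2, 4 and 5, and 7.62 to 10.2 (median 9.90) in CON_LPS. In equal-length lists 3 and 4 libraries kept it (adjusted p = 0.0274). This call rests on few libraries: leaving out any 1 of 7 LPS libraries (MIA_LPS replicates 1, 4 and 5, CON_LPS replicates 1, 4, 6 and 7) ended it, with an adjusted p of at most 0.0547, and so did ranking peaks by fold in place of −log10 p. The region 580 bp upstream (chr8:3664932-3665432) was called as well (3, 5, 0 and 0 libraries, adjusted p = 0.0133), but in the deposited lists 1 MIA_SAL and 3 CON_SAL libraries also had a weak peak there, and it did not pass (adjusted p = 0.333, the highest over the alternatives, whose lowest was 0.0133). By limma on rank scores this region did not pass either (0.11 ± 0.04, SE, adjusted p = 0.0835). The region 1212 bp upstream of Mcemp1 had a peak in all 23 libraries, as did that at the start of the neighbour Trappc5. The upstream peak ranked in the top 12.3% to 37.3% of the list after LPS (median 21.3%) and in the top 28.1% to 59.8% after saline (median 39.9%), and its rank score was higher after LPS by 0.23 ± 0.06 (SE, limma, adjusted p = 0.00689).

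**Figure D3:**
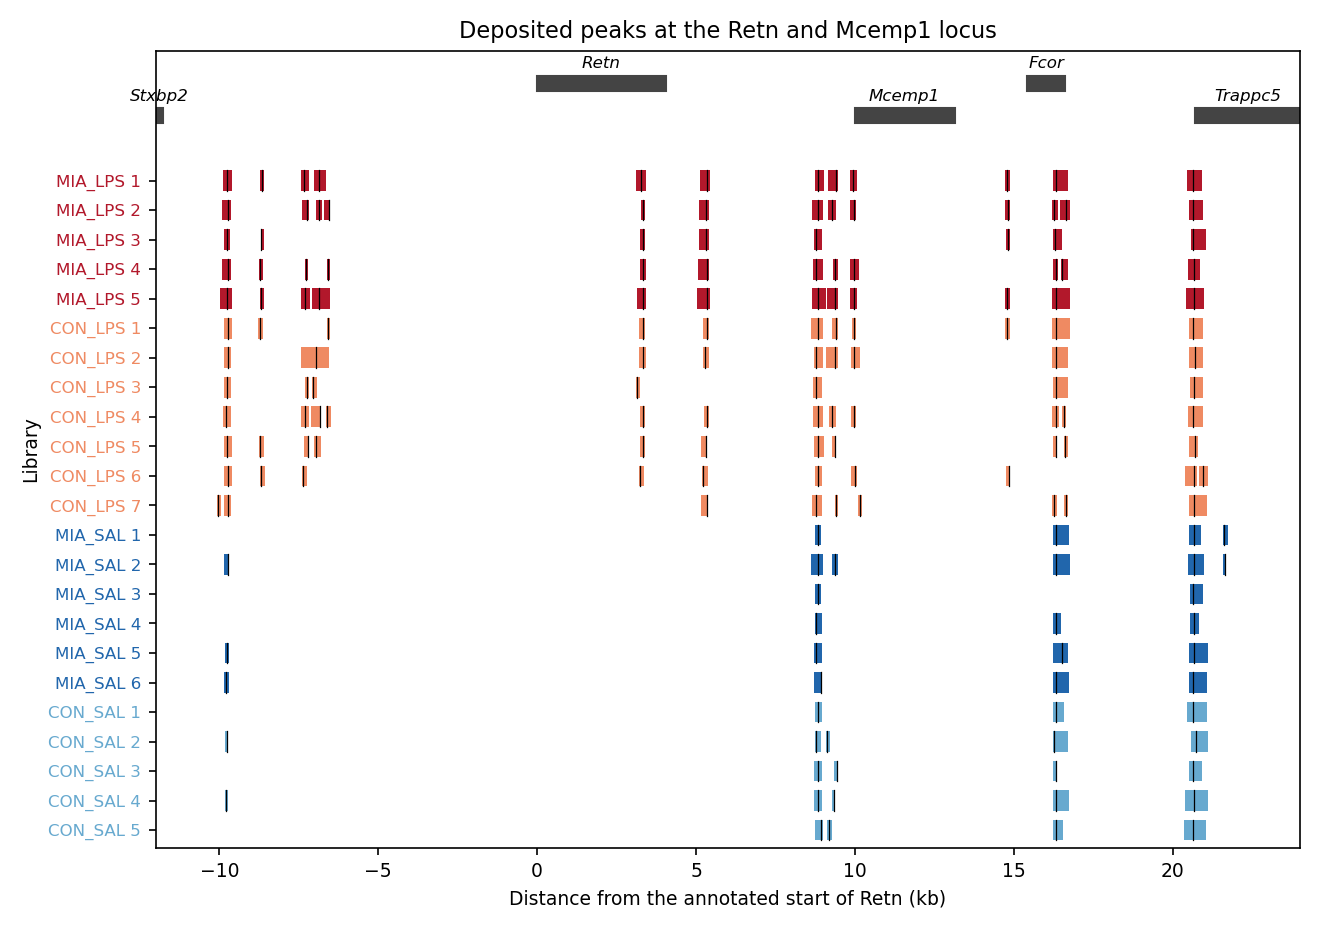
Deposited peaks (bars, summit as a black line) in each of the 23 libraries across the Retn and Mcemp1 locus, against the distance from the annotated start of Retn in kb, with protein-coding genes as grey bars. Peaks in and just past Retn occur in LPS libraries and in none of the 11 saline libraries, whereas the peaks 1212 bp upstream of Mcemp1 and at Trappc5 occur in all 23.

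**Figure D4:**
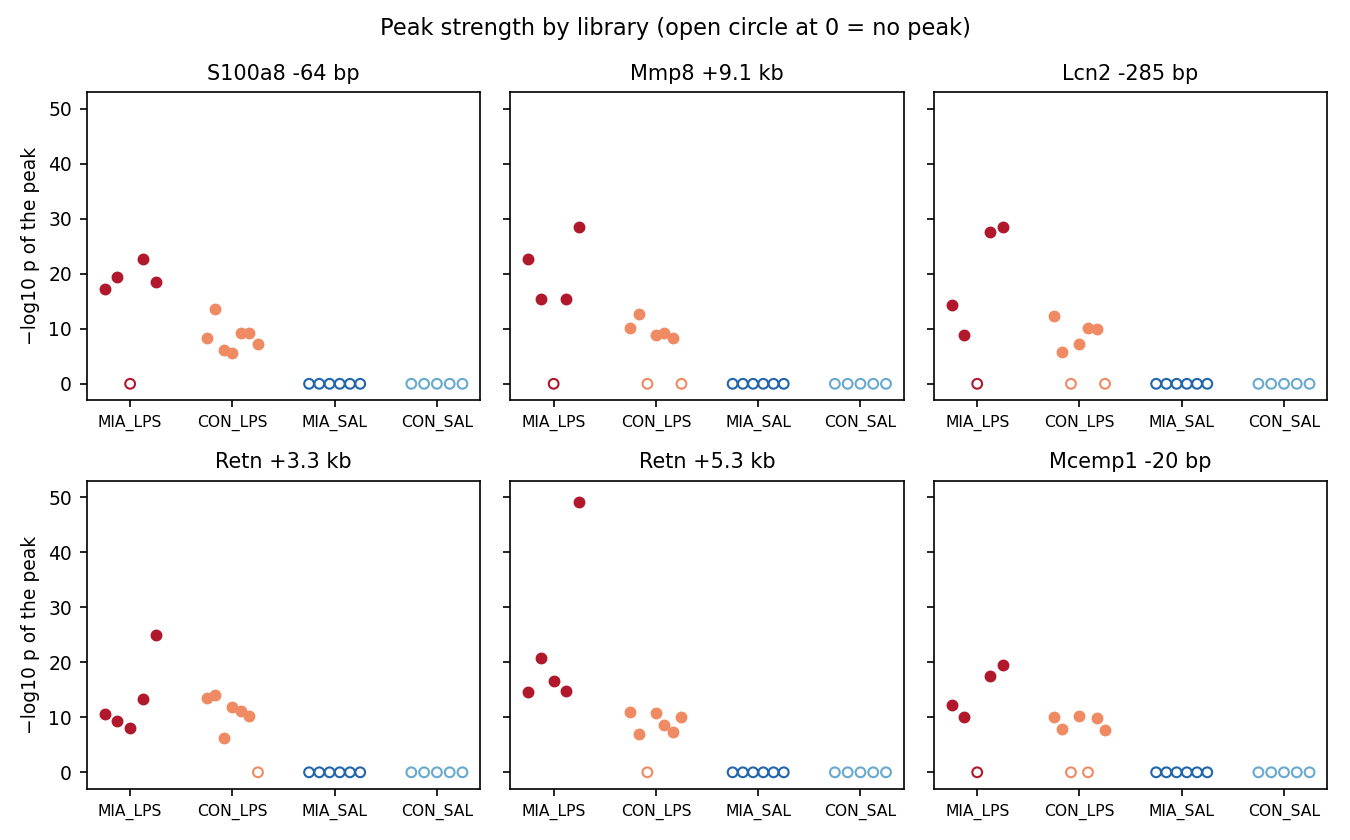
The −log10 p of the peak in each library (filled points) at 6 regions with no peak after saline, named by gene and distance from the annotated start, with open circles at 0 for libraries without a peak. Lcn2 -285 bp did not pass the exact test in equal-length lists. At S100a8 -64 bp, Mmp8 +9.1 kb and Retn +5.3 kb the MIA_LPS peaks lie above the CON_LPS peaks, apart from the 1 MIA_LPS library without a peak at S100a8 and at Mmp8.

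Taken per gene, an own peak was present in more LPS than saline libraries for S100a8 and Retn (10 of 12 against 0 of 11 each, equal-length lists, adjusted p = 0.00423) and for Mmp8 and Mcemp1 (9 of 12 against 0 of 11 each, adjusted p = 0.00945). These were 4 of the 6 genes that could be tested, where 5.28% of 1420 genes genome-wide were called higher and 6.97% lower. The limit of 1 kb was chosen after seeing the data and the genes were named with results known, so this share only describes the list. Lcn2 (6 of 12 against 0 of 11, adjusted p = 0.0916) and Prtn3 (5 of 12 against 6 of 11, adjusted p = 0.861) did not pass. Mmp9 and Cxcr2 were too often or too rarely open to be tested, and S100a9 and Elane had no own peak. The window of 20 kb held a peak in too many libraries for a test at 7 of the 10 genes, and of the other 3 S100a8 (adjusted p = 0.00127) and Mmp8 (adjusted p = 0.00812) were called, against 5.74% of 1132 genes called higher and 7.95% lower.

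Within each prenatal group the libraries were fewer. In MIA offspring 7 of the 34 regions could be tested between LPS and saline, and 2 were called, the regions upstream of and just past Retn (5 of 5 against 0 of 6 libraries each, Fisher's exact test, adjusted p = 0.0142), where 12.8% were called higher and 2.44% lower genome-wide. Without MIA_LPS replicate 3 the count was 4. In CON offspring 7 could be tested and 0 were called, with 3 at an unadjusted p under 0.05 and a smallest adjusted p of 0.107, where 9.79% were called higher genome-wide. Limma on rank scores called 5 of the 34 regions higher and 2 lower in MIA offspring (6.23% and 3.91% genome-wide) and 7 higher and 0 lower in CON offspring (5.61% and 4.52%). The 2 lower regions are 1 wide peak by Ptges2, a neighbour of Lcn2. A call in one prenatal group and not in the other does not show that the responses differ, and the difference itself was tested by the interaction of prenatal group and treatment (limma on rank scores). The interaction was called at 0 of the 34 regions (smallest adjusted p = 0.953), with 2 at an unadjusted p under 0.05, and at 0.00201% of regions genome-wide.

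MIA and CON offspring were also compared directly. After LPS, 0 of 4 testable regions passed the exact test and none had an unadjusted p under 0.05, and the whole table held 0 calls (0%) by that test, with 131 regions at an unadjusted p under 0.05, and 24 calls by limma (0.0482% higher). Limma called 0 of the 34 regions, with 5 at an unadjusted p under 0.05, beside 2801 of 49818 genome-wide. The nearest to a call was the region just past Retn, where the rank score was higher in MIA_LPS than in CON_LPS by 0.29 ± 0.06 (SE, limma, adjusted p = 0.0629). At the S100a8 promoter that difference was 0.14 ± 0.07 (adjusted p = 0.949) and at the end of Mmp8 0.14 ± 0.06 (adjusted p = 0.866). At the region beyond Cxcr2 it was -0.24 ± 0.07, lower in MIA_LPS (adjusted p = 0.577). The deposited −log10 p also moves with the library: MIA_LPS lists held 33949 to 65641 peaks and CON_LPS lists 37284 to 47766, and the part of this in the stronger MIA_LPS peaks was not tested. After saline, 0 of 3 testable regions passed the exact test and none had an unadjusted p under 0.05. Limma called 0 of 34 there, with 1 at an unadjusted p under 0.05, beside 2566 genome-wide.

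The LPS libraries were not alike. At the 9 regions called higher, MIA_LPS libraries had deposited peaks at 9, 9, 5, 9 and 9 and CON_LPS libraries at 5 to 9 (median 8). The 3 lowest were MIA_LPS replicate 3 with 5, CON_LPS replicate 3 with 5 and CON_LPS replicate 7 with 7. These are the 3 LPS libraries whose label ID has 1, 2 or 3 in its second field, a field that the labels do not explain. None of them had a peak at the end of Mmp8 or at the Lcn2 promoter, while all 3 had one upstream of Retn and beyond Cxcr2. They were also libraries of 12500 sorted cells, as were MIA_LPS replicate 2 and CON_LPS replicate 4, which had peaks at all 9. The deposited list held 33949 peaks in MIA_LPS replicate 3, 38249 in CON_LPS replicate 3 and 47708 in CON_LPS replicate 7. CON_LPS replicates 5 and 6, with 38294 and 37284 peaks, had 8 of the 9 regions each. In equal-length lists MIA_LPS replicate 3 and CON_LPS replicate 3 had 5 of the 9 regions each. CON_LPS replicate 7 and MIA_LPS replicate 2 had 6 each there. With fewer than 20000 sorted cells, equal-length lists held the S100a8 promoter peak in 4 of 6 libraries after LPS and 0 of 7 after saline, the end of Mmp8 in 3 and 0, the region in Retn in 4 and 0 and the Lcn2 promoter in 0 and 0. In that class only the region beyond Cxcr2 passed (adjusted p = 0.031), and the region upstream of Retn had an adjusted p of 0.0511. With 20000 or more, the S100a8 promoter, the end of Mmp8, the region in Retn and the Lcn2 promoter each had a peak in 6 of 6 libraries after LPS and 0 of 4 after saline, and each passed (adjusted p = 0.0229). Without the 6 libraries of ID field 1 to 3, 11 regions were called in place of 10. The part of cell number, list length and the ID field in the spread among LPS libraries was not tested.

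The label microglia was checked against marker genes. Of 12 microglia markers, among them P2ry12, Tmem119 and Sall1, 11 to 12 had an own peak in each LPS library and 10 to 12 in each saline library of equal-length lists. Of 30 other neutrophil genes, 8 to 12 had an own peak after LPS and 8 to 11 after saline. Csf3r, Cebpe, Il1r2, Mmp25 and Cxcl2 had one in all 23 deposited lists, Trem1 in 12 LPS and 10 saline libraries and Padi4 in 12 and 9. Of the 30 genes 6 had no own peak in any library, among them Ly6g, which encodes the usual neutrophil surface marker, Ctsg and Fpr1. Mpo and Ngp had none after LPS and 1 each after saline, and Ltf 1 after LPS and 1 after saline. In deposited lists Camp, which encodes the cathelicidin of specific granules, had an own peak in 4 MIA_LPS, 4 CON_LPS, 0 MIA_SAL and 0 CON_SAL libraries, and so had Clec4d. In equal-length lists the counts were 2, 3, 0 and 0 for Camp and 3, 3, 0 and 0 for Clec4d. Gfi1 went the other way, with 1, 1, 4 and 2 deposited lists. Per gene within 1 kb, 2 of the 30 could be tested by the exact stratified test. Of these, 0 were called higher and 1, Olfm4, lower (adjusted p = 0.0456). Olfm4 had an own peak in 1 MIA_LPS, 5 CON_LPS, 6 MIA_SAL and 5 CON_SAL equal-length lists. In deposited lists the counts were 4, 7, 6 and 5.

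The 30 genes held 35 regions that could be tested, of which 10 were open in more LPS libraries and 2 in fewer, with a median difference of 18.8 percentage points, beside the 14.8% higher, 7.83% lower and median of -2.01 points over all regions tested. The 10 lay in or within 20 kb of 6 genes, Wfdc21, Trem1, Fpr2, Ifitm6, Padi4 and Clec4d. Of these, the region of Ifitm6 was nearer to Ifitm3 (1140 bp), that of Clec4d nearer to Clec4n, 1 of those of Trem1 nearer to Treml4 (326 bp), and 1 of those of Padi4 lay inside Padi3. A peak lay at the start of Trem1, the gene of a receptor that amplifies inflammatory signals on neutrophils and monocytes, and another 3231 bp from Wfdc21, each found in all 12 LPS libraries and in 0 of 11 after saline (adjusted p = 0.000178). A region 6983 bp from Fpr2, the gene of a formyl peptide receptor, was open in 12 and 1 (adjusted p = 0.000546), and a region in Padi4, whose enzyme citrullinates histones, in 8 and 0 (adjusted p = 0.0133). The 2 lower regions lay 3405 bp from Il1r2 (0 and 7 libraries, adjusted p = 0.0147) and 108 bp from Olfm4 (6 and 11, adjusted p = 0.0269). These are counts in equal-length lists, and Olfm4 had an own peak in 11 LPS and 11 saline deposited lists.

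Of 10 monocyte genes 4 to 6 had an own peak after LPS and 3 to 6 after saline in equal-length lists. In deposited lists Ly6c2 had none in any library and Ccr2 had 1, in a MIA_SAL library. Vcan, Itga4 and Cd44 had one in 12 LPS and 11 saline deposited lists each, Fn1 in 12 and 10 and Ms4a4c in 5 and 1. F13a1, the gene of a coagulation factor subunit made by monocytes and macrophages, had an own peak in 5 MIA_LPS, 6 CON_LPS, 0 MIA_SAL and 0 CON_SAL libraries of equal-length lists (adjusted p = 0.00129). It was the 1 gene called of 4 in the monocyte list that could be tested. Ace went the other way, with 0, 1, 2 and 3 libraries (adjusted p = 0.233), as did Plac8 with 3, 1, 3 and 4 (adjusted p = 0.4998). Border-associated macrophage genes had own peaks for 1 to 3 of 8 after LPS and 1 to 3 after saline, lymphocyte genes for 1 to 3 of 9 and 0 to 2, and endothelial genes for 3 of 8 in every library. Neuron genes had them for 2 to 4 of 8 after LPS and 3 to 5 after saline. For astrocyte and oligodendrocyte genes it was 3 to 4 of 10 and 3 to 6. In deposited lists the macrophage gene Mrc1 and the lymphocyte gene Cd3d had an own peak in 12 LPS and 11 saline libraries each. Ms4a7 had one in 5 and 0, Ms4a1 in 8 and 1, and Lyve1 and Pf4 in 2 and 3 each. Counted by region within 20 kb, own regions included, 3 of 15 tested were called higher after LPS for the monocyte list. These lay in F13a1 and 14303 bp from Ace, the latter nearer to Cyb561. The lymphocyte list had 2 of 8 (Cd2, 12 LPS against 2 saline libraries, and Ms4a1, 11 against 4). The endothelial list had 2 of 13 (both at Pecam1, 12 against 3 and 6 against 0), and border-associated macrophages 0 of 9. The neuron list had 1 of 11 and the astrocyte and oligodendrocyte list 0 of 9, beside 14.8% over all regions tested. The monocyte, neuron, and astrocyte and oligodendrocyte lists each had 1 region called lower, beside 7.83%. The part of other cell types in the peaks at the 10 genes was not tested.

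**Figure D5:**
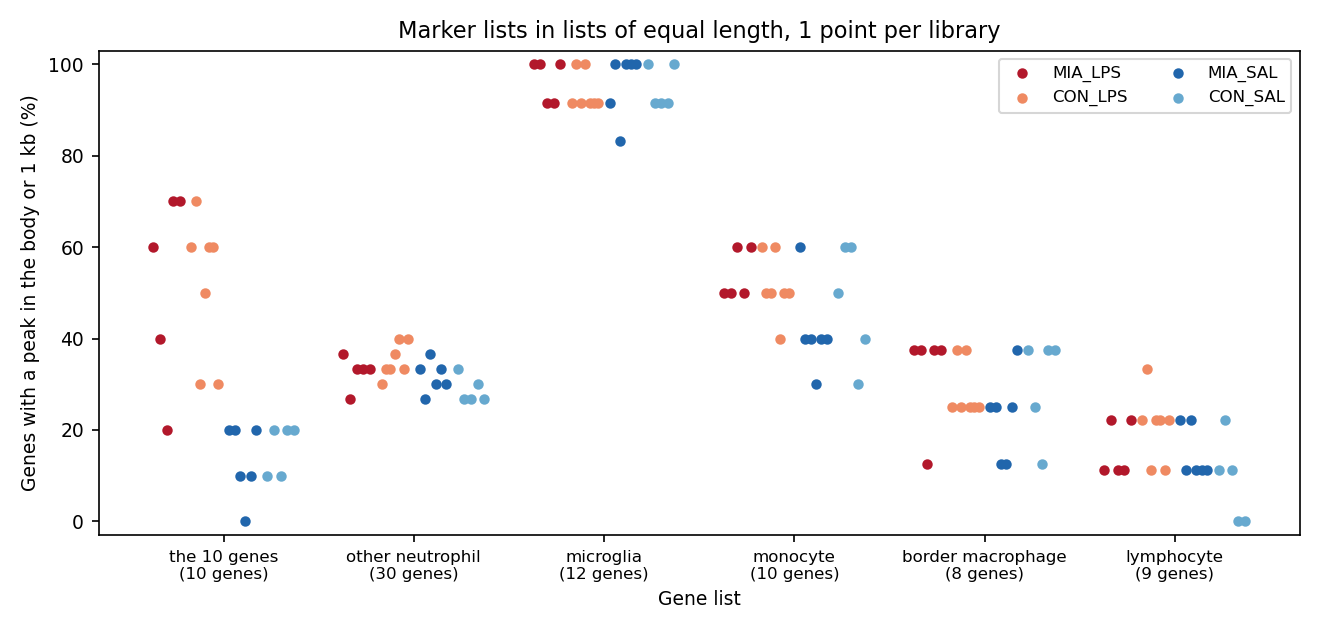
Share of the genes of each list with a peak in the body or within 1 kb in equal-length lists (percent), with 1 point per library coloured by group. The 10 neutrophil genes reach 70% in LPS libraries and 20% in saline libraries, while the microglia list stays between 83.3% and 100% and the other neutrophil list between 26.7% and 40%.

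Regions elsewhere in the genome whose rank scores ran most alike those of the called regions over the 23 libraries, which share depth and treatment, were also found. For the S100a8 promoter these lay in Lpp (Pearson r = 0.928), in Lrrc20 (0.917), nearest to Gm38821 (0.898), in Xdh (0.890) and nearest to Jdp2 (0.887). For the region upstream of Retn they lay in Bicd2 (0.996), in Ell (0.993), 6417 bp from Dusp1 (0.990), nearest to Niban2 (0.990) and in Ahnak (0.987), present in 12 of 12 LPS libraries and in 0 or 1 saline library each. For the end of Mmp8 the closest lay in Marf1 (0.952) and, as for S100a8, in Xdh (0.902). Such correlations can follow the split of the libraries by treatment and also differences among LPS libraries. The region in Lrrc20, for example, was present in 5 LPS libraries and the S100a8 promoter in 10 (equal-length lists). These parts were not separated, and the correlations carry no test.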

How the data were processed

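ATAC-seq peak lists, 1 per library, were used as the authors deposited them. The submitters' processing notes name the tools DiffBind, MACS2, SAMtools, Picard, Bowtie2 and cutadapt and the builds mm10 and GRCm38. The sources used here give no versions or settings. No file has a header. From their order and values, the deposited columns were read as fold enrichment over the local background (a ratio), −log10 p and −log10 q (lowest 1.30), and the score column was not used. The authors gave no counts with these lists, so read depth is unknown.

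Lists were cut to the best 33949 peaks by −log10 p, and summits were merged to windows of 250 bp to either side. A peak counted in a region where at least 50% of the region or of the peak overlapped. Regions with a peak in 3 or more libraries were tested by Fisher's exact test or its stratified form (scipy 1.17.1), two-sided, with Benjamini-Hochberg adjustment, and by limma 3.58.1 (R 4.3.3) on rank scores. An adjusted p under 0.05 was a call. On simulated data with 200 changed regions among 49818, for LPS against saline over both prenatal groups, the exact test recovered 90.5% and limma 45%. Changed regions there had a peak in nearly all libraries of either treatment and in nearly none of the other. Libraries were drawn independently and rank scores at random. The shares therefore hold for very large differences and do not give the power for smaller ones. Groups came from the labels, which do not state separate animals, so a p-value reflects the spread among libraries, which may be technical. Libraries shared at most 0.309% identical peaks.

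The members, marker lists and tests were chosen with earlier results of these data known. Named in full were regions called in any comparison and, per gene, the own region open in most libraries and the region with the largest LPS difference. Named other neutrophil genes were those with a called region, and other list genes were named after their values were seen. Some list genes are counted in their lists and are not reported here by name. Gene positions came from RefSeq (GRCm38.p6), where all 10 genes matched by symbol and 9 of them in the promoter table.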

Additional observations from a re-analysis of the deposited data

Results flagged for a closer look

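Values standing apart within their group were sought in 39 groups of libraries and values, and 4 were found. The rule gives about 1 in 20 by chance for untied values, a rate that does not hold for the tied counts of regions below. Those counts are also over regions chosen as open in more LPS libraries. MIA_LPS replicate 3 had a deposited peak at 5 of the 9 neutrophil gene regions called higher after LPS, where the other 4 MIA_LPS libraries had 9. In equal-length lists, MIA_SAL replicate 3 had a peak at 1 of these 9 regions and the other 5 MIA_SAL libraries at 0, and CON_SAL replicate 2 had a peak at 2 and the other 4 CON_SAL libraries at 0. At the region just past Retn (chr8:3660837-3661337), the peak of MIA_LPS replicate 5, the longest LPS list, had a −log10 p of 49.1, where the other 4 MIA_LPS libraries had 14.7 to 20.8.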

How the results depend on the processing

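The count of regions called for LPS against saline over both prenatal groups was 10 (9 higher, 1 lower). It was 3 among the best 16974 peaks, 6 with a replicate block (exact test in pairs of equal replicate number), 1 with under 20000 sorted cells and 9 to 11 with each library left out. It stayed within 1.5 times of 10 in the other settings run, 15 with a replicate block in limma among them. In CON offspring 0 regions were called. There were 1 with all deposited peaks, 2 among the best 16974, 2 without ID field 1 to 3, 7 with limma, 6 with limma and a replicate block, and 0 to 1 with each library left out (1 without CON_LPS replicate 4, 5 or 7 or CON_SAL replicate 2). In MIA offspring 2 were called. There was 1 among the best 16974 and with ranking by fold, 0 when every region entered the adjustment, 7 with limma with or without a replicate block, and 2 to 4 with each library left out. Per gene within 20 kb, 2 were called. There was 1 with all deposited peaks, with −log10 q of at least 5 and when every gene entered, and 0 among the best 16974 and with under 20000 sorted cells. There were 4 within 1 kb (chosen after seeing the data), 6 with limma, 5 with limma and a replicate block, and 2 with each library left out. Tests of MIA against CON and of the difference in response gave 0 in every setting run. No direction of a called region reversed. The difference in peaks per library, 11.1, was 9.98 to 12.3 with each library left out. Same-numbered libraries deviated together weakly at most (r from -0.183 to 0.182, over 0.1 in 1 or 2 of 5 pairs per comparison). Among LPS and saline libraries of equal number, r was over 0.1 for CON replicate 3 (0.127) and MIA replicates 2 (0.131) and 3 (0.153). Both libraries of each of these pairs had the same second ID field, which no other such pair shared. MIA and CON libraries of equal number with r over 0.1 did not share it. Some libraries within a group also share the field: CON_SAL replicates 4 and 5, CON_LPS 1 and 6, MIA_SAL 1 and 5, and MIA_SAL 3 and 4. So do some of unequal number across treatments, such as MIA_LPS replicate 5 and MIA_SAL replicate 6. Whether libraries that share this field are related was not tested, and the tests treated all as separate, within groups too. Within 1 prenatal group or treatment, the block in the exact test and both classes of cell number left no region to test, and so did leaving out ID field 1 to 3 in MIA offspring and after saline, and 20000 or more cells for MIA against CON.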

Other observations

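Around the 10 genes, other regions of the deposited lists were seen in LPS libraries and not after saline, but were too rare in equal-length lists to be tested or did not pass. The region 8714 bp upstream of Retn had a peak in 4 MIA_LPS, 3 CON_LPS, 0 MIA_SAL and 0 CON_SAL libraries, that 6949 bp upstream of Retn in 3, 4, 0 and 0, that 1657 bp upstream of Lcn2 in 4, 2, 0 and 0, and that 608 bp from an end of Fcor, next to Mcemp1, in 4, 2, 0 and 0. At microglia genes, 3 of 48 tested regions were open in more LPS libraries and 5 in fewer, where genome-wide 14.8% were called higher and 7.83% lower. A region 3466 bp from Siglech was open in 11 LPS and 0 saline libraries (exact stratified test, adjusted p = 0.000546), and 1 in P2ry12 in 0 LPS and 7 saline libraries (adjusted p = 0.0147).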
